A study of Mus musculus with 6 samples.

Results

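The interleukin 1 (IL-1) family genes Il1a, Il1b, Il1rn, Il18, Il18bp, Il1r1, Il1r2, Il1rap, Il33 and Il36g were followed in mouse bone marrow-derived macrophages. These 10 genes were taken by symbol from the 21959 genes of the deposited table. The cells were wild-type primary macrophages grown out of marrow in culture, and every well received conditioned medium mixed 1:1 with fresh complete medium for 24 h. The medium had been conditioned for 48 h by alveolar macrophages, which reside in the air spaces of the lung, from mice aged 8 to 12 weeks. In 3 libraries (N1 to N3) those alveolar macrophages were HTR2C-, without the serotonin receptor 2C, and in 3 libraries (P1 to P3) they were HTR2C+. The labels number the samples without saying what a number stands for, and the p-values below therefore speak only of the variation among these libraries, which may be technical. How many mice gave the conditioned medium is not given in the sources used here, and cells kept without conditioned medium were not analysed here.

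IL-1 alpha and IL-1 beta, encoded by Il1a and Il1b, bind the receptor encoded by Il1r1, which then recruits the accessory chain encoded by Il1rap and signals through MyD88 and IRAK kinases to NF-kB. The system carries its own brakes: the antagonist encoded by Il1rn occupies the receptor without signalling, the receptor encoded by Il1r2 is a decoy, and the protein encoded by Il18bp captures IL-18. Macrophages stimulated through Toll-like receptors are a well-known source of Il1a, Il1b and Il1rn transcripts, while secretion of mature IL-1 beta and IL-18 needs a further cleavage by caspase-1 that transcript counts do not measure.

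Total counts were 12843971 to 16031723 per library, and 10177 genes passed the filter on low counts, all 10 family genes among them. Macrophage markers were present, with 3295 to 4034 CPM (counts scaled to library size with TMM factors) summed over 7 markers with HTR2C- medium and 3186 to 4163 with HTR2C+ medium. Of the markers of other cells, the alveolar epithelial list summed to at most 0.727 CPM, with Sftpc, Sftpa1, Sftpb and Krt18 at 0 counts in every library. The neutrophil list summed to 868 to 1065 against 1010 to 1264 CPM, most of it S100a8 (means of 654 and 797 CPM). Ngp (129 and 138 CPM), S100a9 and Mmp8 were also present in that list, while Ly6g and Cxcr2 were at 0. Libraries N2 and P1, from different groups, correlated as closely (r = 0.983 across genes) as the closest pair within a group (N1 and N3, r = 0.983).

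The ligand and antagonist genes Il1b, Il1rn and Il1a were among the most abundant transcripts of these cells in both media, and no family gene passed the correction over all genes. Il36g, a ligand gene of the IL-36 branch, was the 1 gene of the 10 with an unadjusted p under 0.05 and stood at 0.69 times its HTR2C- level with HTR2C+ medium. Il1b had nearly equal means in the media on the TMM scale. Il1rn and Il1a, however, were lower relative to Il1b within every HTR2C+ library than within any HTR2C- library. So were 10.8% of the tested genes with reads in every library. For Il1a these ratios overlapped between the media after correction for transcript GC content and length. The family together took 1.02% to 1.17% of counts with HTR2C- and 0.96% to 1.15% with HTR2C+ medium.

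Across the table, edgeR's quasi-likelihood test called 0 genes at an adjusted p under 0.05 (0% of those tested), so 0 calls among the 10 family genes is the same share. DESeq2 called 394 genes (3.87%), none of them in the family, although it gave no adjusted p for Il1r1, Il1r2 and Il33, and limma-voom called 0. At an unadjusted p under 0.05 edgeR had 1 family gene against 1690 genes, or 16.6%, of all tested. In TMM-scaled CPM 2 family genes, Il36g and Il1rap, had groups that did not overlap, against 22.3% of all. The estimated fold change was below 0 for 9 of the 10, against 47.9% of all tested genes, with a median log2 fold change of -0.32 against 0.02. The 9 are not separate observations, since Il1a and Il1rn, for example, followed each other across libraries (Pearson r = 0.98). Il1b, among the 9, was at -0.01, and Il1r1 and Il33 rest on few reads. Total-count scaling moved both medians up, while the lean against all genes was smaller after GC and length correction. Scaled to total counts alone, the family median was -0.17 with 8 below 0, and the median of all genes was 0.16. Once the trend of each library with transcript GC content and length was taken out, the family median was -0.09 with 7 below 0. The median of all genes was then 0.01. The family's transcripts had a median GC content of 44.3%, under the 48.9% of all tested genes.

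Measured per gene length, as deposited FPKM values (fragments scaled to gene length and library total), the family spanned from some of the highest levels in the cells to near the limit of detection. Il1b was first with a mean of 2123 FPKM over the 6 libraries (1918 to 2278) and ranked between 20 and 26 among all genes of a library. Il1a followed at 1070 FPKM (822 to 1242) and Il1rn at 779 FPKM (620 to 857). The ranges of Il1a and Il1rn overlapped, although Il1a was the higher of the pair in 6 of 6 libraries. Il18 at 177 FPKM, Il18bp at 60.8 and Il36g at 26.9 came next, each with a range clear of its neighbours. All 3 receptor genes and Il33 lay far lower: Il1rap at 1.03 FPKM, Il1r2 at 0.504, Il1r1 at 0.343 and Il33 at 0.269, with overlapping ranges that do not set any of these 4 apart from its neighbour. Fewer cells of a type and less RNA per cell cannot be told apart in such bulk libraries.

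**Figure D1:**
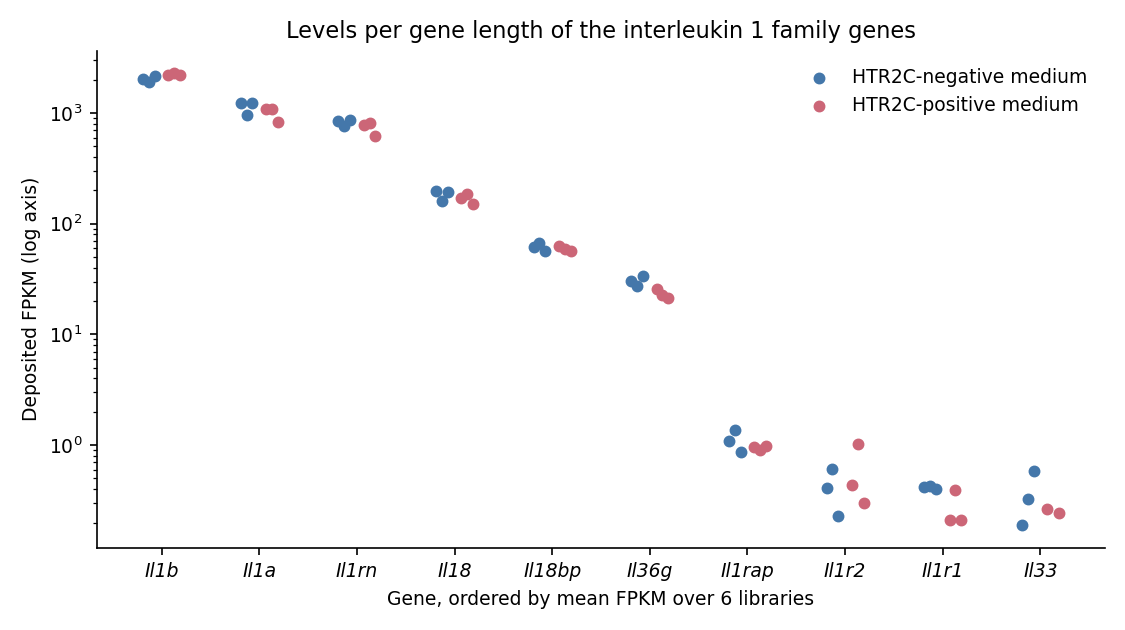
Deposited FPKM (log axis) of each interleukin 1 family gene in the 3 libraries with HTR2C-negative and the 3 with HTR2C-positive medium, 1 point per library. Il1b, Il1a and Il1rn sit near 1000 FPKM and the receptor genes and Il33 near or under 1 FPKM; Il33 in P2, listed at 0, cannot be drawn on this axis.

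Of the 10 genes, 6 have another of them as a neighbour or near neighbour in the genome, while Il18, Il18bp, Il1rap and Il33 each lie alone on chromosomes 9, 7, 16 and 19. On chromosome 2 (GRCm39, as in the deposited table) Il1a (ENSMUSG00000027399, 129141530 to 129151892, minus strand) and Il1b (ENSMUSG00000027398, 129206490 to 129213059, minus strand) are 54597 bases apart with no other gene of the table between them. Farther away on the same chromosome lie Il36g (ENSMUSG00000044103, 24076488 to 24083580) and Il1rn (ENSMUSG00000026981, 24226865 to 24241506), both on the plus strand, with Il36rn, Il36a and Il1f10 between them. Il1r2 (ENSMUSG00000026073, 40113239 to 40164391) and Il1r1 (ENSMUSG00000026072, 40264240 to 40356417) are neighbours on chromosome 1. Some neighbours had like levels and others did not. Il36a averaged 30.2 FPKM, near Il36g at 26.9 FPKM, while Il36rn, which encodes the IL-36 receptor antagonist, and Il1f10 averaged 0 CPM with HTR2C- and 0.022 and 0.0882 CPM with HTR2C+ medium.

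The 250 bases before the start of 4 ligand and antagonist genes are shown because the results turn on these genes. They are from RefSeq on GRCm38.p6, an older build than that of the table, at chr2:129309973-129310222 (Il1a, minus strand), chr2:129371140-129371389 (Il1b, minus strand), chr2:24345041-24345290 (Il1rn, plus strand, the second of its 3 RefSeq starts) and chr2:24186226-24186475 (Il36g, plus strand, named Il1f9 there). Capitals mark matches, on either strand, to TTNCNNAA or TTGCGCAA (C/EBP type), TGANTCA (AP-1 type) or NF-kB type letters. The NF-kB type letters were GGGANTTCC and a pair of longer forms, GGGAN followed by NTTCC and GGGNN followed by TTTCC. Where matches overlap, their capitals run together.
Il1a: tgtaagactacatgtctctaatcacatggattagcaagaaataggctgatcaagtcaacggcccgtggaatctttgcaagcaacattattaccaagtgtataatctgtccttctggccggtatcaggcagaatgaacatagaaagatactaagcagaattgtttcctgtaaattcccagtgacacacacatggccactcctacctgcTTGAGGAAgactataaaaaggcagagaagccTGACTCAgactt
Il1b: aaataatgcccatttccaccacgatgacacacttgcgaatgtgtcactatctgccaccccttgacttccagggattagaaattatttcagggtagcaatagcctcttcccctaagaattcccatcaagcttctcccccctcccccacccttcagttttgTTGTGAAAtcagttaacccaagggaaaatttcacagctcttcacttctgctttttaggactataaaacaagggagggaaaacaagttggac
Il1rn: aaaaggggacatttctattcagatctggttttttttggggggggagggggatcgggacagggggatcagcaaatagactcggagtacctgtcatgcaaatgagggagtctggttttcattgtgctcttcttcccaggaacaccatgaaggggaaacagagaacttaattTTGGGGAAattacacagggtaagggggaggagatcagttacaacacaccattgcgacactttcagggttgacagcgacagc
Il36g: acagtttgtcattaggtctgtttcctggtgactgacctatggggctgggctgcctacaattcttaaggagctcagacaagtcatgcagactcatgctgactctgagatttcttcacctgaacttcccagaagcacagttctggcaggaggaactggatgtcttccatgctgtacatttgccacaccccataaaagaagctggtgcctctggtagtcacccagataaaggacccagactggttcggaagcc

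Il1a, Il1b and Il1rn each had a TTNCNNAA match in these windows, letters that 36.8% of all 32851 RefSeq promoter windows of this length hold. TGANTCA matches (6.75% of windows) stood 12 bases before the Il1a start and 141 bases before the first Il1rn start, whose window is not printed. Before the third Il1rn start, 51 bases upstream, stood GGGTTTTTCC, a match to the last of the NF-kB type forms, which 1.41% of windows hold. No window of the other family genes matched the NF-kB type letters, and the windows of Il36g, Il18, Il1r2 and Il1rap matched none of the 6. Matched letters are a description of the sequence, and letters not found say nothing about a factor. All 10 family genes had at least 1 RefSeq window.

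Among the ligands, Il1b, the main secreted agonist of macrophages, was at 4340, 3454 and 4419 CPM in N1 to N3 and at 3715, 4519 and 3917 CPM in P1 to P3. The groups overlapped, with N2 the lowest library and P2 the highest. The log2 fold change, HTR2C+ minus HTR2C- medium, was -0.01 with a standard error (SE) of 0.17, a 95% interval of -0.37 to 0.35 and an adjusted p of 0.988 (edgeR quasi-likelihood test, n = 3 per group). That interval spans 0.78- to 1.28-fold. The sign of this small value depended on the scaling: it was 0.13 with total counts alone (unadjusted p = 0.296) and 0.22 after GC and length correction (unadjusted p = 0.179). On the deposited FPKM, which carry total-count scaling alone, the Il1b groups did not overlap (2006, 1918 and 2152 against 2196, 2278 and 2187 FPKM). Il36g and Il1r1 were apart on that scale too, both lower with HTR2C+ medium. The share of all genes with groups apart in FPKM was not counted. In TMM-scaled CPM it was 22.3% of tested genes, so these separations are not read as a result about the family.

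Il1a, whose product acts both inside the cell and on the surface of its source, was at 2782, 1780 and 2596 CPM in N1 to N3 and at 1896, 2248 and 1523 CPM in P1 to P3. N2 lay among the HTR2C+ libraries, and the other HTR2C- libraries lay above all of them. Its log2 fold change of -0.34 (SE 0.20, interval -0.77 to 0.10, adjusted p = 0.421) did not pass. It was 0.06 after GC and length correction. With N2 and P1 both left out it was -0.50 with an adjusted p of 0.0210, in a fit of 2 libraries per group that called 1107 genes (10.9%) over the whole table. N2 and P1 were the pair that an earlier analysis of these data had found most alike, so that fit adds no support. In the other alternatives the adjusted p was 0.157 to 0.969.

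Il18, a cytokine kept as an inactive precursor until cleaved, was at 233, 156 and 215 CPM in N1 to N3 and 155, 201 and 147 CPM in P1 to P3. N2 again sat with the lower libraries and P2 with the higher ones. With an SE of 0.18 the log2 fold change was -0.27 (adjusted p = 0.489), and -0.04 after GC and length correction. The spans of Tex12 and Bco2 overlap Il18 on the opposite strand, and whether the counting used strand is not given in the sources used here. Reads of such partners cannot be told apart without strand, although Bco2 and Tex12 averaged 3.93 and 4.04 CPM with HTR2C+ medium, far under Il18.

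Il36g had the clearest separation of the family. It was at 56.4, 42.8 and 60.3 CPM in N1 to N3 and at 37.8, 38.6 and 33.0 CPM in P1 to P3. Every HTR2C+ library was lower than every HTR2C- library, and N2 was the HTR2C- library nearest to them. Its log2 fold change was -0.54 (SE 0.17, interval -0.91 to -0.17), with an unadjusted p of 0.00725 and an adjusted p of 0.156, so it failed the correction. GC and length correction brought it to -0.26 (unadjusted p = 0.113). Leaving out N2 and P1 gave -0.69 and an adjusted p of 0.00344, in a fit that called 10.9% of all tested genes. An earlier analysis of these data had found that pair most alike, so that fit adds no support. The other alternatives gave adjusted p-values of 0.0578 to 0.837. Without N3 the log2 fold change was -0.43 and the unadjusted p 0.0583.

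Il36a, another ligand gene of that branch, was at 30.2 ± 6.91 CPM with HTR2C- and 24.2 ± 11.1 CPM with HTR2C+ medium (SD, n = 3, adjusted p = 0.624). It was the 1 gene tested of the 4 ligand and antagonist genes listed beside the family, since Il36b, Il36rn and Il1f10 stayed under the filter.

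Il33, a nuclear cytokine best known from epithelium, endothelium and fibroblasts, was at the edge of detection. Its raw counts were 7, 13 and 27 in N1 to N3 and 12, 0 and 11 in P1 to P3. P2 was the library without a read, which allows up to 0.198 CPM, and N3 stood above the other 5. The log2 fold change was -1.28 with an SE of 0.88 and an interval of -3.18 to 0.62, too wide to set the media apart (adjusted p = 0.486). It was -0.72 without N3 and -0.73 without P2. Markers of fibroblasts summed to 54.4 to 64.3 CPM with HTR2C- and 55.7 to 71.5 CPM with HTR2C+ medium and those of endothelium to 13.5 to 17.1 and 14.9 to 17.8 CPM, and their part in the Il33 counts was not tested.

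Il1rn, the receptor antagonist gene, took the most reads of the family in 5 of 6 libraries, all but P3, with 0.343% to 0.474% of a library's counts. It was at 5350, 3945 and 5107 CPM in N1 to N3 and at 3789, 4707 and 3223 CPM in P1 to P3. As for Il1a, N1 and N3 were above all HTR2C+ libraries and N2 was among them. Its log2 fold change was -0.30 (SE 0.19, interval -0.70 to 0.11, adjusted p = 0.442), and -0.06 after GC and length correction. The count per gene does not separate the secreted from the intracellular forms of the antagonist, which differ in their starts. Single libraries weighed on both abundant genes of this pattern: Il1rn was at -0.46 without P2 and -0.17 without P3, and Il1a at -0.51 without N2 and -0.20 without P3.

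Il18bp, which encodes a secreted protein that traps IL-18, was at 212, 193 and 187 CPM in N1 to N3 and at 168, 187 and 161 CPM in P1 to P3. N3 and P2 met at 187 CPM, and the log2 fold change was -0.20 (SE 0.14, adjusted p = 0.512). The span of Numa1, at 6.83 CPM with HTR2C+ medium, overlaps Il18bp on the opposite strand.

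**Figure D2:**
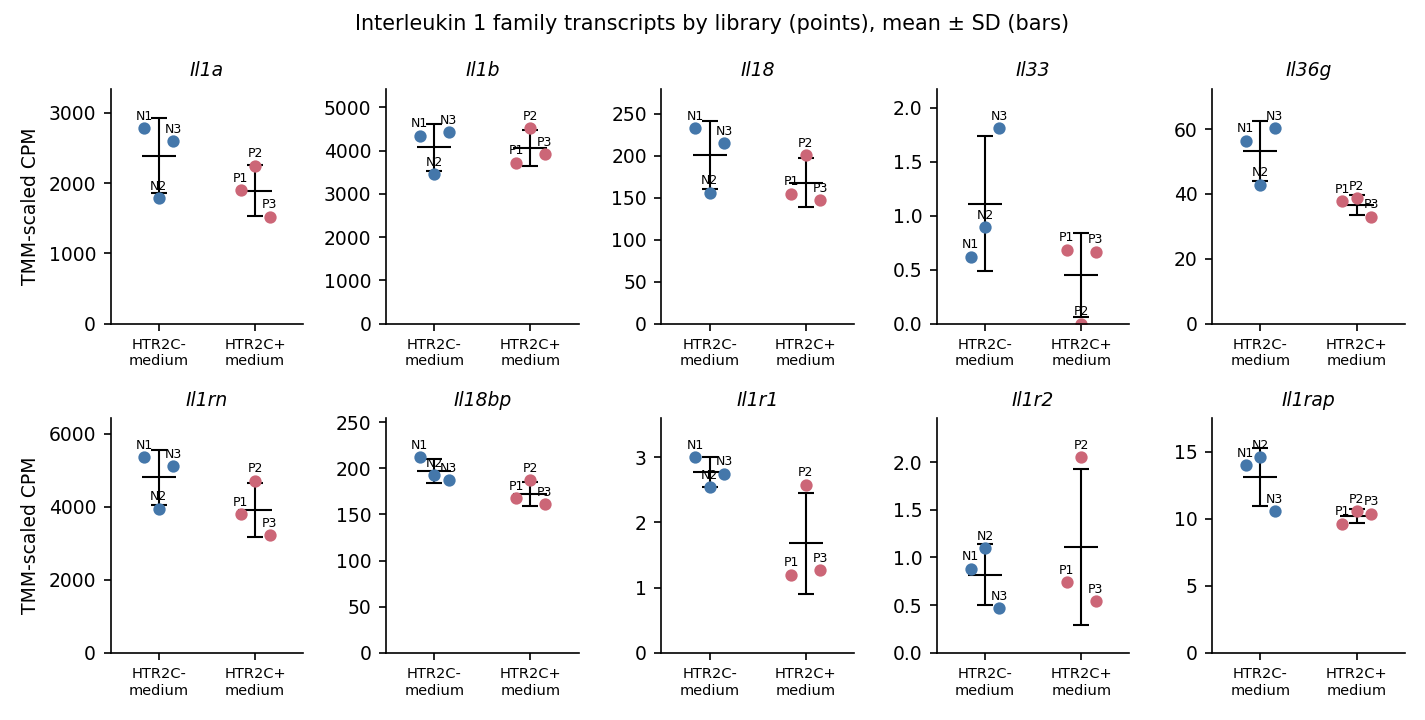
TMM-scaled CPM (vertical axes, each starting at 0) of the 10 genes in each library (points, labelled N1 to N3 and P1 to P3), with the group mean and SD as black bars. The groups are apart for Il36g, with HTR2C-positive libraries between 33.0 and 38.6 CPM under HTR2C-negative ones between 42.8 and 60.3, and N2 lies low in Il1a, Il1b, Il1rn and Il18.

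Il1r1 and Il1r2 were measured on few reads. Il1r1, the signalling receptor, had 34, 37 and 41 counts in N1 to N3 and 21, 39 and 21 in P1 to P3. P2 was level with the HTR2C- libraries, while P1 and P3 were lower. The log2 fold change was -0.72 (SE 0.43, interval -1.65 to 0.21, adjusted p = 0.420), and -1.16 without P2.

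Il1r2, the decoy receptor that neutrophils also carry, had 10, 16 and 7 counts in N1 to N3 and 13, 31 and 9 in P1 to P3. A single library, P2, stood above the rest. Its log2 fold change was 0.43 (SE 0.69, adjusted p = 0.790) and became -0.34 without P2. Of the 7 tested neutrophil markers, 6 had positive log2 fold changes, from 0.10 for Ngp to 0.66 for Mpo, and Mmp8 a negative one (-0.48). None passed the correction, and their part in Il1r2 was not tested.

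Il1rap, the accessory chain that IL-1, IL-33 and IL-36 receptors share, was at 14.05, 14.63 and 10.61 CPM in N1 to N3 and at 9.64, 10.58 and 10.45 CPM in P1 to P3. The groups did not overlap in CPM, with N3 just above P2, but they overlapped in FPKM. For Il1rap the log2 fold change was -0.36 (SE 0.21, adjusted p = 0.419), and -0.13 after GC and length correction.

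The remaining receptor genes were also scarce. Of 7 listed, 3 were tested and 0 had an unadjusted p under 0.05: Il18rap, a chain of the IL-18 receptor, at 1.88 CPM with HTR2C+ medium (log2 fold change 0.24), Il1rl2, the IL-36 receptor, at 1.60 CPM (0.13) and Il1rl1, the IL-33 receptor ST2, at 1.13 CPM (0.02). Il1rapl1 and Il1rapl2 were at 0 counts in all libraries.

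**Figure D3:**
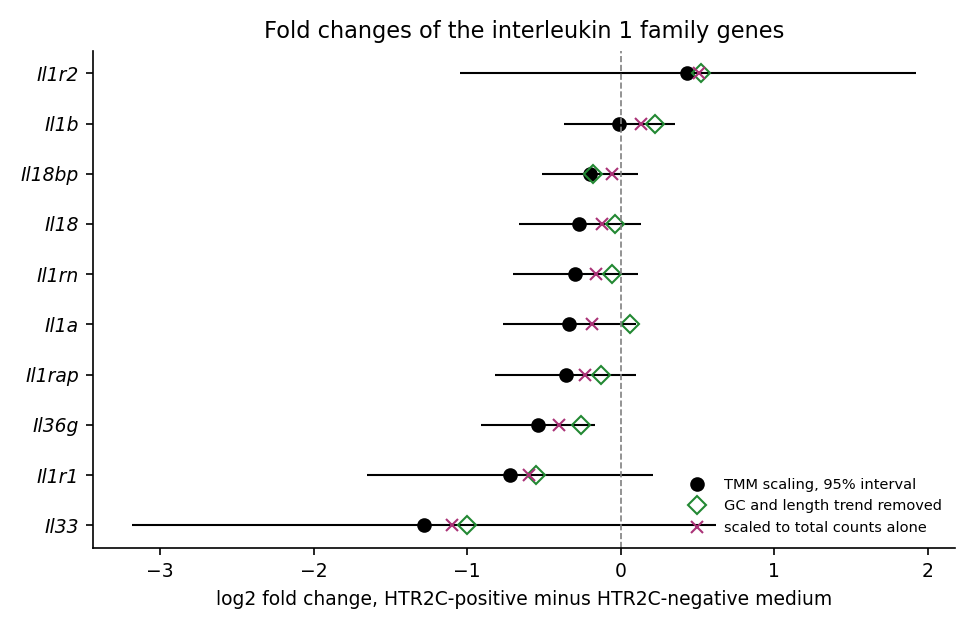
Log2 fold change of each gene (horizontal axis, HTR2C-positive minus HTR2C-negative medium) with its 95% interval from the edgeR fit under TMM scaling (filled circles and lines), with total-count scaling (crosses) and after GC and length correction (diamonds). The interval of Il36g alone excludes 0 (-0.91 to -0.17), and the diamonds lie to the right of the circles for 9 genes and on it for Il18bp at this scale.

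Ratios within a library do not depend on the scaling between libraries, so antagonist or decoy genes were also set against their partners. For Il1rn over Il1b the FPKM ratio was 0.425, 0.394 and 0.398 in N1 to N3 and 0.351, 0.359 and 0.284 in P1 to P3. Each HTR2C+ library had less antagonist transcript per Il1b transcript than any HTR2C- library, and P3 had the least. The mean log2 ratio was -1.30 ± 0.06 and -1.60 ± 0.19 (SD, n = 3), a difference of -0.30, or 0.81-fold. An exact two-sided permutation test gave p = 0.10, the smallest that 3 against 3 allows, and 0.20 adjusted over the 4 ratios, so the test cannot pass a threshold of 0.05. After GC and length correction the groups were still apart (-0.29), and without P3 the difference was -0.19. Over the tested genes with reads in every library, 10.8% had a ratio to Il1b that was lower without overlap in HTR2C+ libraries.

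Il1a over Il1b was 0.619, 0.498 and 0.568 in N1 to N3 and 0.493, 0.481 and 0.376 in P1 to P3. The groups were apart by a narrow gap between N2 and P1, with a difference in log2 ratio of -0.32 (exact permutation p = 0.10, 0.20 adjusted, n = 3). After GC and length correction the difference was -0.16 and the groups overlapped, and without P3 it was -0.20.

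Il18bp over Il18 was 0.310, 0.422 and 0.295 against 0.369, 0.317 and 0.373, with overlapping groups and a log2 difference of 0.06 (exact permutation p = 0.80, n = 3). Il1r2 over Il1r1 was 0.981, 1.44 and 0.569 against 2.06, 2.65 and 1.43. Its groups met between N2 and P3, and the log2 difference of 1.09 (exact permutation p = 0.20, 0.27 adjusted, n = 3) rests on 7 to 41 reads per gene and library.

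**Figure D4:**
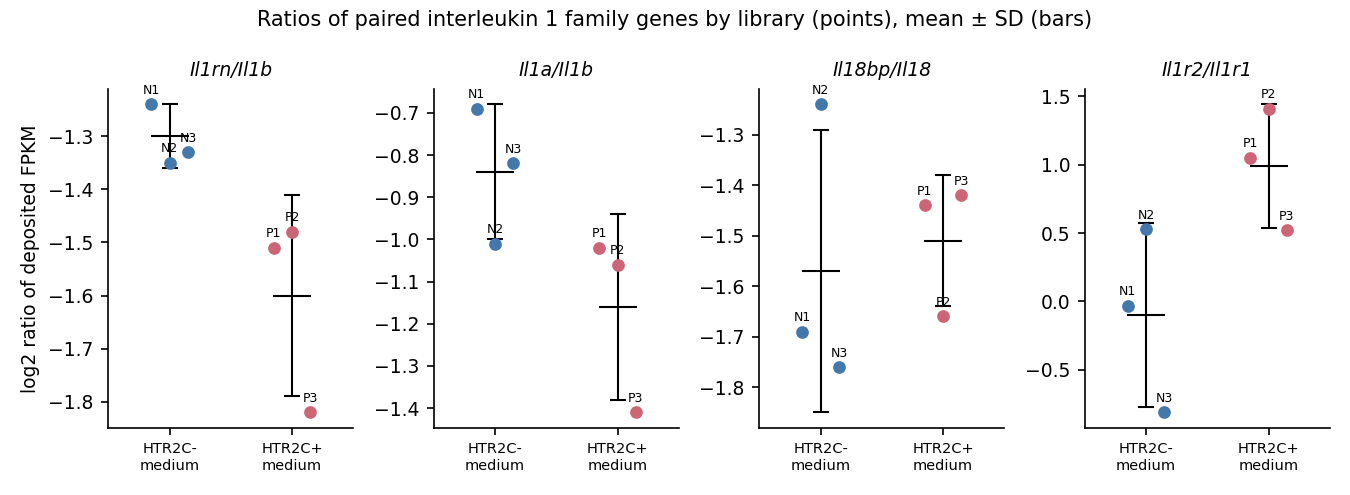
Log2 ratio of deposited FPKM within each library (points) for 4 pairs of genes, with group means and SD (bars); the vertical axes differ between panels and do not start at 0. Il1rn/Il1b and Il1a/Il1b were lower in every HTR2C-positive library, by means of -0.30 and -0.32, while the other 2 pairs overlapped.

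Il1a, Il1rn and Il18 followed one another closely across libraries. As a description over the 6 libraries, which share their scaling, the log2 CPM of Il1a and Il1rn had a Pearson r of 0.98 and those of Il1rn and Il18 one of 0.97. Il36g had 0.87 to Il1a and 0.86 to Il1rn. Il1b was less close, with 0.73 to Il1a, 0.70 to Il1rn, 0.83 to Il18 and 0.45 to Il36g. These values carry no GC and length correction, and how many other genes follow Il1a, Il1rn or Il18 as closely was not counted. Genes most like Il1b among 5315 with a mean of at least 10 CPM included Rcn1 (r = 0.997), Tmem171 (0.992), Svbp (0.984) and Ly96 (0.984). Of the genes searched, 104 had an r over 0.9.

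Genes that act on the family's products or respond to them were read from lists chosen for the pathway. Of 61 tested genes of these lists, 0 had an adjusted p under 0.05, while an unadjusted p under 0.05 was reached by 10 with higher and 5 with lower values in HTR2C+ medium, against 7.90% and 8.71% of all tested genes. After GC and length correction these counts were 4 and 0, against 9.72% of all tested genes in both directions. They were 3 and 1 without N1 and 3 and 3 without N3, fits for which the shares of all tested genes were not counted.

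In the list of processing and release, 17 genes were tested, and at an unadjusted p under 0.05 there were 2 with higher and 3 with lower values (median log2 fold change 0.20). Casp1, the protease that matures IL-1 beta and IL-18, was at 701 ± 106 CPM with HTR2C- and 521 ± 67.0 CPM with HTR2C+ medium (log2 fold change -0.43, SE 0.17, adjusted p = 0.233 by edgeR). Casp4, which encodes the sensor of cytosolic lipopolysaccharide, was at 752 ± 109 and 555 ± 72.5 CPM (-0.44, adjusted p = 0.216). Ninj1, needed for membrane rupture in lytic death, went the other way at 112 ± 24.4 and 158 ± 25.8 CPM (0.50, adjusted p = 0.206). The groups did not overlap for these 3 genes, which were named for having the smallest p of the list. Of the 17, groups were apart for 3 genes with higher and 4 with lower values, against 22.3% of all tested genes. After GC and length correction the values of Casp1, Casp4 and Ninj1 were -0.09, -0.07 and 0.08.

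The receptor signalling list had 22 tested genes, of which 2 had higher and 1 had lower values at that unadjusted threshold (median 0.08). Rela, the NF-kB subunit p65, was at 22.8 ± 4.35 and 36.9 ± 2.42 CPM (log2 fold change 0.69, adjusted p = 0.113, and 0.23 without the trend). Mapk8, which encodes the kinase JNK1, was at 12.7 ± 0.923 and 7.82 ± 2.07 CPM (-0.70, adjusted p = 0.179, and -0.42 without the trend). Tab1, an adaptor of the kinase TAK1, was low at 0.729 ± 0.264 and 1.97 ± 1.55 CPM with overlapping groups (adjusted p = 0.286). The adaptor gene Myd88 was at 121 ± 31.4 and 168 ± 74.0 CPM (0.47, adjusted p = 0.394).

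Among 18 tested genes that IL-1 or IL-18 are known to induce, 6 had higher and 1 had lower values at that threshold, with a median of 0.17. Over all tested genes the shares were 7.90% and 8.71%. After GC and length correction 3 of the list were higher and 0 lower. Lcn2, a siderophore-binding protein gene, was at 95.9 ± 17.8 and 180 ± 52.9 CPM (log2 fold change 0.90, adjusted p = 0.0889, and 0.71 without the trend). Zc3h12a, whose product degrades Il6 and other cytokine messages, was at 14.5 ± 0.0951 and 22.5 ± 1.98 CPM (0.64, adjusted p = 0.124, and 0.28 without the trend). Il6 itself was at 601 ± 122 and 407 ± 79.4 CPM with overlapping groups (-0.56, adjusted p = 0.178, and -0.13 without the trend). These genes respond to many other stimuli, and their counts do not measure IL-1 activity.

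**Figure D5:**
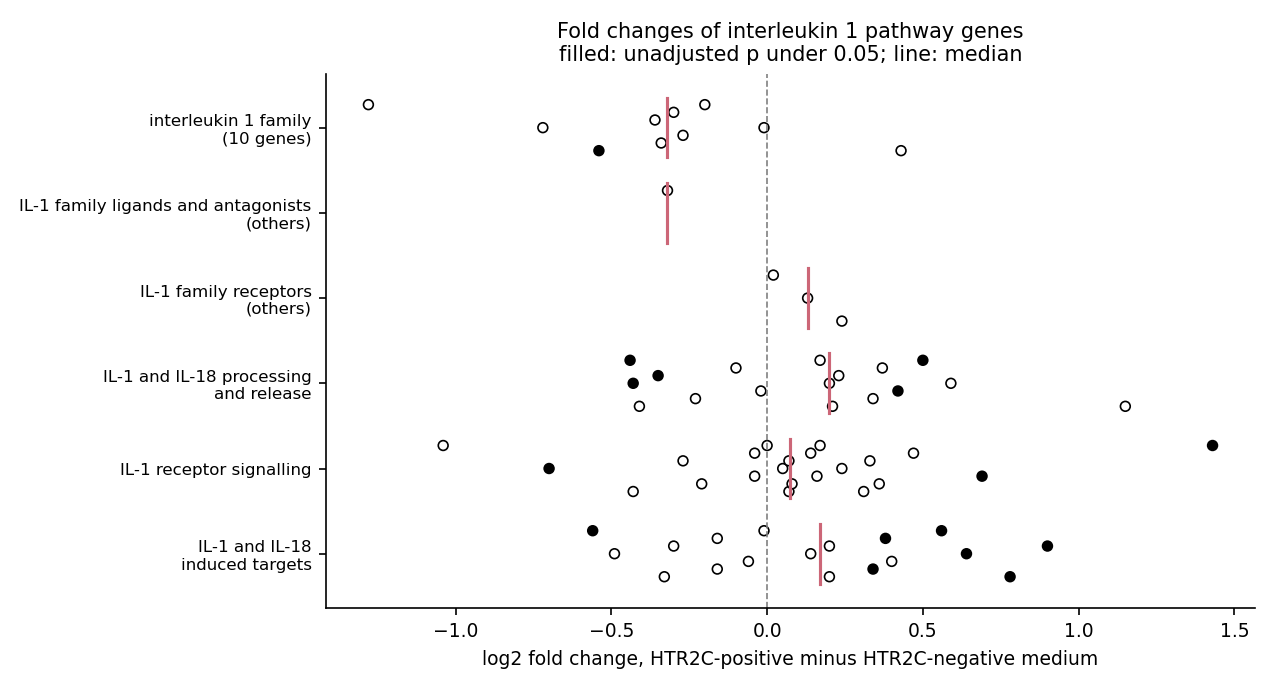
Log2 fold changes (horizontal axis, HTR2C-positive minus HTR2C-negative medium) of the 10 family genes and of the tested genes of 5 lists, 1 point per gene, filled where the unadjusted p was under 0.05, with each median as a vertical line. The family median lies at -0.32, and the medians of the processing, signalling and target lists at 0.20, 0.08 and 0.17; vertical scatter within a list has no meaning.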

How the data were processed

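RNA-seq of 6 libraries, 3 per medium, was analysed from the deposited table. Per the labels' protocols, Trizol RNA went into VAHTS Universal V6 libraries. Tools listed in the submitters' processing notes are edgeR, fastp, HISAT2 and StringTie, on GRCm39 and with no versions. How reads were counted is not given in the sources used here. Per the file headers, the authors deposited raw read counts and FPKM values for each gene. The deposited FPKM equal count over gene length and total count (largest relative difference 3.80e-07). The gene length, in bases, is a column of the deposited table.

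Counts were fitted in R 4.3.3 with edgeR 4.0.16: filterByExpr, TMM factors, robust quasi-likelihood F test, Benjamini-Hochberg adjustment over 10177 genes, threshold 0.05. Intervals are 95% intervals of that fit. Ratios of FPKM were compared with exact permutation tests. For a gene at 0 the limit is 3 counts, for counting error only. GC content came from the longest GENCODE M21 transcript of a gene (0.147% of tested genes had none), and trends with GC and length were fitted per library with splines of 4 degrees of freedom. The fit was also run on simulated counts drawn without a GC or length trend, and the outcome is not given here. DESeq2 1.42.0, limma-voom (limma 3.58.1), other scalings and filters and left-out libraries were alternatives. The genes, lists and tests were chosen with earlier results of these data known. The text names all 10 family genes, the 3 genes with the smallest p of each pathway list (all tested ones where fewer) and the 5 genes most correlated with Il1b, of which 1 is not reported here. Myd88, Il36rn, Il1f10, neutrophil markers and genes overlapping family genes were named after their values were seen.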

Additional observations from a re-analysis of the deposited data

How the results depend on the processing

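The number of genes past the adjusted threshold, 0 in the main analysis, was 422 with no count filter, 394 with DESeq2, 0 to 206 with 1 library left out (206 without N2 and 186 without P1) and 1107 without N2 and P1, a pair that an earlier analysis of these data had found most alike. Family genes past it stayed at 0 in every alternative except the last, which had 2, Il1a (-0.50) and Il36g (-0.69). Il33 and Il1r2 were not tested at 1 CPM in 3 libraries, and DESeq2 gave no adjusted p for them and Il1r1.

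Signs of small values were unstable. The log2 fold change of Il1b became 0.13 with total counts alone, 0.01 with no count filter, 0.22 with the GC and length offset, with or without the replicate block, and ranged from -0.11 to 0.07 with 1 library left out. Il1a became 0.06 with the offset and 0.05 with the offset and the replicate block. Il1r2 ranged from -0.34 to 0.77 with 1 library left out. The Il18bp/Il18 difference was -0.14 with the offset and -0.04 to 0.22 with 1 library left out, and the Il1r2/Il1r1 difference was 0.31 on log2 of FPKM + 1, where the added 1 exceeds most of the FPKM values. The cause of the other shifts was not tested.

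Of the 61 pathway genes, 15 had an unadjusted p under 0.05, against 6 with the replicate block, 4 with the offset, 3 with both and 4 to 20 with 1 library left out (4 without N1, 6 without N3). The share of all tested genes fell as well, from 16.6% in the main fit to 9.72% with the offset. That share was not counted with the block or with libraries left out, so these changes are not read as particular to the pathway genes. Deviations of same-numbered libraries from their group means correlated at -0.19, -0.28 and 0.07. With 3 libraries per group, such values cannot tell whether same-numbered libraries belong together. The block changed no call at the adjusted threshold, where the main fit already had 0. Il1r1, Il1r2 and Il33, at 0 to 41 counts per library, are limited by depth.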
